A study of Mus musculus with 8 samples.

Results

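Cyp3a11, Cyp3a13, Cyp3a16, Cyp3a25, Cyp3a41a and Cyp3a44 are the 6 genes of the mouse Cyp3a family that the array carried by name. They were selected on their diet difference in scaled signal on these same arrays, as seen in earlier results, so those differences are given below as a description with no test. Every probe bearing one of these names was followed, which gave 8 probes of 41174 non-control probes and 6 of 19505 named genes. The name Cyp3a41 on the array was read as Cyp3a41a. Of the 8 probes, 7 were bright enough to be tested, among 31056 probes of 16558 genes. Livers came from male C57BL/6 mice (C57BL/6J in the methods) of 14 to 17 weeks of age. Of the mice, 4 were administered standard chow (STD) and 4 an atherogenic (ATH) diet rich in fat and cholesterol, which according to the methods also held cholic acid, for 4 weeks. All mice were wild type, each liver was hybridized to an array of its own, and all arrays of a diet shared 1 slide. Diet and slide therefore cannot be told apart.

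CYP3A enzymes are haem-containing monooxygenases of the endoplasmic reticulum that oxidize many drugs, steroid hormones and bile acids, and they take their electrons from cytochrome P450 reductase with help from cytochrome b5. In hepatocytes their genes are classical targets of the pregnane X receptor (PXR, encoded by Nr1i2), a sensor of foreign compounds and bile acids, and of the constitutive androstane receptor (CAR, encoded by Nr1i3), and their expression is known to fall during inflammation. Cyp3a11 is a major adult liver form, Cyp3a16 is best known from fetal and young liver, Cyp3a41a and Cyp3a44 are known as female-predominant forms, Cyp3a25 is another adult liver form, and Cyp3a13 is known for its expression in intestine as well as liver.

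The genes lie on chromosome 5 in separate places. On the GRCm38.p6 assembly 8 protein-coding Cyp3a genes form a cluster of 769.8 kb (chr5:145345149-146114978), in the order Cyp3a57, Cyp3a16, Cyp3a41b, Cyp3a41a, Cyp3a44, Cyp3a11, Cyp3a25 and Cyp3a59. The array named 5 of these 8 genes. Cyp3a57, Cyp3a59 and Cyp3a41b, the near copy of Cyp3a41a, had no probe under their names. Cyp3a13 lies 7420 kb away from the cluster.

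The 250 bases before the RefSeq start of 4 members are shown so that the cluster genes can be compared with Cyp3a13, which did not differ between the diets beyond its spread. They are on GRCm38.p6, each printed from 5′ to 3′ toward the start site. The Cyp3a13 stretch lies inside the RefSeq gene span (chr5:137892933-137925610), before a start further into the gene. Those of Cyp3a11, Cyp3a16 and Cyp3a25 lie at the 5′ end of the gene span. The bases before the 5′ end of the Cyp3a13 span were not compared. Capitals mark CAAAGTCCA, a motif of the hepatocyte factor HNF4A, and TGTTTAC, a motif of the FOXA factors, searched on both strands.
Cyp3a11 promoter, chr5:145879855-145880104, minus strand: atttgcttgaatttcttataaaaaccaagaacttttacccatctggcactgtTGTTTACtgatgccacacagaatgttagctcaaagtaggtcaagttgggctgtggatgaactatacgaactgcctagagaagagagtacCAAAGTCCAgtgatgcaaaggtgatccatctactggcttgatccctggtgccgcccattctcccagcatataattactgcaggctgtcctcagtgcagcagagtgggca
Cyp3a16 promoter, chr5:145469724-145469973, minus strand: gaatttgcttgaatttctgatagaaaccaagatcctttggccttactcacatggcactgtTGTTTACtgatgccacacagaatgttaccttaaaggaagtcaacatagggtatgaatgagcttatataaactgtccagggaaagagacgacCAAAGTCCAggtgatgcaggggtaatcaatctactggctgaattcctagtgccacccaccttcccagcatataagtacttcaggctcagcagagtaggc
Cyp3a25 promoter, chr5:146009619-146009868, minus strand: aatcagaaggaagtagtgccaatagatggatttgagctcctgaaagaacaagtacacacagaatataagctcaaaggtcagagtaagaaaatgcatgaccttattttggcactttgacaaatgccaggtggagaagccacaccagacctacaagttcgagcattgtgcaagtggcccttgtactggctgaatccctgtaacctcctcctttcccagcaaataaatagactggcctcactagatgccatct
Cyp3a13 promoter, chr5:137921620-137921869, minus strand: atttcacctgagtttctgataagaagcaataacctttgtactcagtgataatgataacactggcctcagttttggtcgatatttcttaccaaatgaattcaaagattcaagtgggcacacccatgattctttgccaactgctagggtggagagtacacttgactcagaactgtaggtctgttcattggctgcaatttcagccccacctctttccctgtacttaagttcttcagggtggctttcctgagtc
Cyp3a41a resembled Cyp3a16 with both motifs in place, and Cyp3a44 held only TGTTTAC. Among the 9 Cyp3a promoters of the RefSeq table, which include the 3 genes absent from the array, CAAAGTCCA was found in 4 and TGTTTAC in 5. Over all 27025 promoters of the same 300 bases (250 before and 50 after the start), 0.477% held CAAAGTCCA and 3.55% held TGTTTAC. These promoters are copies of one another to a large degree and are not independent. The 250 bases before the start were 90.9% to 94.4% identical between Cyp3a16, Cyp3a41a and Cyp3a44, and 71.7% to 76.2% identical between Cyp3a11 and these 3 genes. Cyp3a25 was 49.8% to 52.7% identical to the same 4 genes, while Cyp3a25, Cyp3a57 and Cyp3a59 were 88.9% to 94.8% identical to each other. Cyp3a13, at its stretch inside the gene span, was 47.5% to 56.2% identical to the other members. The nuclear receptor half-site AGGTCA was present in 5 Cyp3a promoters (16.0% of all) and AGTTCA in 3 (14.0% of all). No Cyp3a promoter held these half-sites as a direct repeat with 1, 3 or 4 bases between them or as an everted repeat with 6, arrangements each found in at most 0.0444% of all promoters.

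The probes are single-stranded 60-base DNA oligonucleotides, and 2 are printed whole because the annotation limits what the Cyp3a11 probe measures and because the Cyp3a44 probes disagreed. Their positions are those of the array design, on the older mm7 assembly.
Cyp3a11 probe, chr5:144750340-144752207, minus strand, a span of 1868 bases that crosses an intron: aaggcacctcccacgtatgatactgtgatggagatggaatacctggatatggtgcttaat
Cyp3a44 bright probe, chr5:144587795-144587854, minus strand: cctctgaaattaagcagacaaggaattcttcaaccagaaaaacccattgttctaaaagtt
The positions do not keep Cyp3a44 and Cyp3a41a apart. On mm7 the design placed both Cyp3a44 probes next to the Cyp3a41 probe, with 26 and 263 bases between, whereas on GRCm38.p6 the genes Cyp3a41a and Cyp3a44 are 53.8 kb apart. The array file lists the Cyp3a44 RefSeq transcript alone for both Cyp3a44 probes and that of Cyp3a41a alone for the Cyp3a41 probe. The name Cyp3a44 therefore rests on the listed transcript and goes against the design position, and the values of Cyp3a44 and Cyp3a41a may not be those of separate genes. Both printed probes read through in at least 1 frame without a stop codon. The array file lists RefSeq transcripts of 3 genes for the Cyp3a11 probe, those of Cyp3a11, Cyp3a41a and Cyp3a44, so its signal may combine them. A second Cyp3a44 probe, at chr5:144587558-144587617, begins with the 30 bases cactgagctttctcagtgtctgtgcaagtt and behaved differently, as described with Cyp3a44. Between probes of different members the longest run of identical bases was 4 to 8 over 26 pairs. How far each probe captures transcripts of the other Cyp3a genes was not tested.

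Values below are scaled levels, the log2 processed signal of a probe minus the 75th percentile of all non-control probes on the same array. A difference is the mean of the ATH mice minus the mean of the STD mice on that scale, and errors are SD over 4 mice. Levels of different probes are not compared, since each probe has its own brightness. All 7 tested member probes were above background on every array and saturated on none.

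Cyp3a11, a major drug- and steroid-oxidizing form of adult liver, was lower in every mouse on the atherogenic diet. Its scaled level was 8.64, 8.32, 8.11 and 8.02 in STD mice 1 to 4 and 6.37, 6.63, 6.52 and 6.25 in ATH mice 1 to 4. The diets were separated by a gap of 1.39, and the 4 ATH mice lay within 0.38 of each other. The means were 8.27 ± 0.28 and 6.44 ± 0.17 (SD, n = 4 each), a difference of -1.83, or a 3.56-fold lower level on the ATH diet.

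The probe named for Cyp3a16, the form best known from early life, was above background in all 8 adult livers. How far it captures transcripts of other Cyp3a genes was not tested. It read 6.90, 6.65, 6.35 and 6.04 in the STD mice and 4.60, 4.91, 4.74 and 4.42 in the ATH mice. No ATH mouse reached the lowest STD mouse. The means were 6.49 ± 0.37 and 4.67 ± 0.21 (SD, n = 4 each), a difference of -1.82 (3.52-fold lower).

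Cyp3a44 and Cyp3a41a, the female-predominant forms, each had a probe well above background on every array of these male livers, with the limit given above that their probes lie side by side on mm7. The bright probe listed for Cyp3a44 read 7.72, 7.59, 7.29 and 7.11 in the STD mice and 5.76, 6.07, 5.77 and 5.54 in the ATH mice. The diets did not overlap, and the difference of the means, 7.43 ± 0.28 and 5.78 ± 0.21 (SD, n = 4 each), was -1.64 (3.12-fold lower). The second Cyp3a44 probe, 1 of the 2 that carry this name, was well above background on 1 STD array and on no ATH array. Its processed signal was 3.50 to 19.8 over the 8 arrays, while the bright probe gave 32828 to 100598. No difference is given for it, and the cause of this disagreement was not tested.

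The Cyp3a41a probe read 9.04, 9.004, 8.81 and 8.68 in the STD mice and 7.68, 7.81, 7.51 and 7.29 in the ATH mice. Every ATH mouse was below every STD mouse. The means were 8.88 ± 0.17 and 7.57 ± 0.23 (SD, n = 4 each), a difference of -1.31 (2.48-fold lower). Transcripts of Cyp3a41a and Cyp3a41b cannot be told apart here, since the array has a single Cyp3a41 probe.

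Cyp3a25 varied most among STD mice and had probes that placed the diets differently. Its brighter probe read 7.18, 6.97, 6.52 and 6.03 in the STD mice and 6.05, 6.12, 5.41 and 5.58 in the ATH mice. STD mouse 4 fell below ATH mice 1 and 2, so the diets overlapped. The means were 6.68 ± 0.51 and 5.79 ± 0.35 (SD, n = 4 each), a difference of -0.88. The dimmer probe, from another stretch of the gene, read 4.58, 4.30, 4.01 and 3.44 in the STD mice and 3.30, 3.33, 2.87 and 2.99 in the ATH mice. Here the diets were separated, by only 0.11, and the difference was -0.96. Both probes ranked the mice in much the same way, with a correlation of 0.988 over the 8 arrays, which share the same RNA.

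Cyp3a13, the gene outside the cluster, did not differ between the diets beyond its spread. It read 4.40, 4.39, 4.59 and 4.73 in the STD mice and 4.65, 4.97, 4.38 and 4.28 in the ATH mice. The highest and the lowest mouse were both on the ATH diet. The means were 4.53 ± 0.17 and 4.57 ± 0.31 (SD, n = 4 each), a difference of 0.04.

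**Figure D1:**
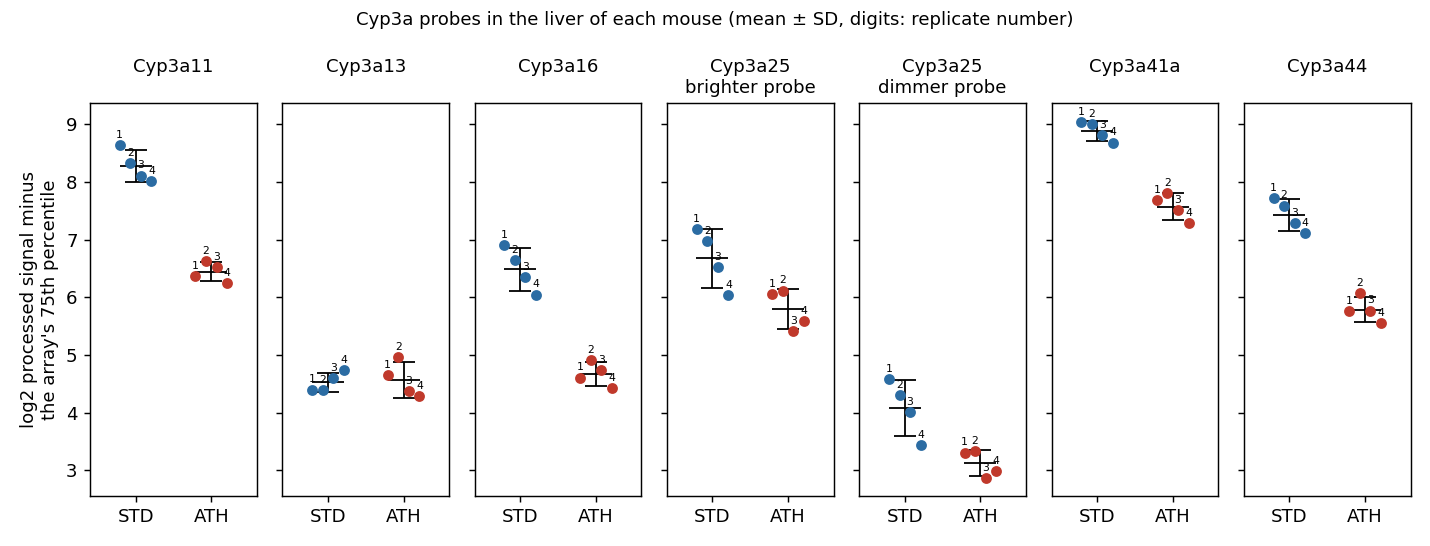
Scaled log2 level of the 7 tested Cyp3a probes (y axis) in each STD mouse (blue) and ATH mouse (red), with the mean and SD of each diet in black and the replicate number above each point. The diets are apart for Cyp3a11, Cyp3a16, Cyp3a41a, Cyp3a44 and the dimmer Cyp3a25 probe, and overlap for Cyp3a13 and the brighter Cyp3a25 probe.

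Over the family, all 4 ATH mice were below all 4 STD mice at 5 of the 7 tested probes, where 13.8% of all tested probes had this separation, and at none of them were all ATH mice above all STD mice, a separation that 6.01% of all tested probes had. Of the 6 genes, Cyp3a11, Cyp3a16, Cyp3a41a and Cyp3a44 were among the probes that limma called lower at 1%, as were 0.335% of all tested probes (0.528% were called in either direction). These calls belong to the contrast from which the genes were chosen, and nothing is read from them. Cyp3a41a and Cyp3a44 are counted here as the array names them. The median difference of the 6 genes was -1.48.

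The size of the differences depended on the scaling, and the direction of the 5 cluster genes did not. The 75th percentile was higher on the ATH arrays by 0.45 and the 10 spike-in probes by 0.14, and the median difference of all genes, -0.14, became 0.31 with no scaling and 0.17 with the spike-in probes as the scale. Over 8 settings of background and scaling, the difference was -1.86 to -1.38 for Cyp3a11, -1.84 to -1.37 for Cyp3a16, -1.67 to -1.20 for Cyp3a44, -1.34 to -0.86 for Cyp3a41a and -0.91 to -0.44 for Cyp3a25. Cyp3a13 ranged from 0.01 to 0.49, and without scaling all 4 ATH mice were above all 4 STD mice at its probe. Without scaling, with spike-in scaling and with quantile normalization, 4 of the 7 probes instead of 5 had all ATH mice below all STD mice.

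**Figure D2:**
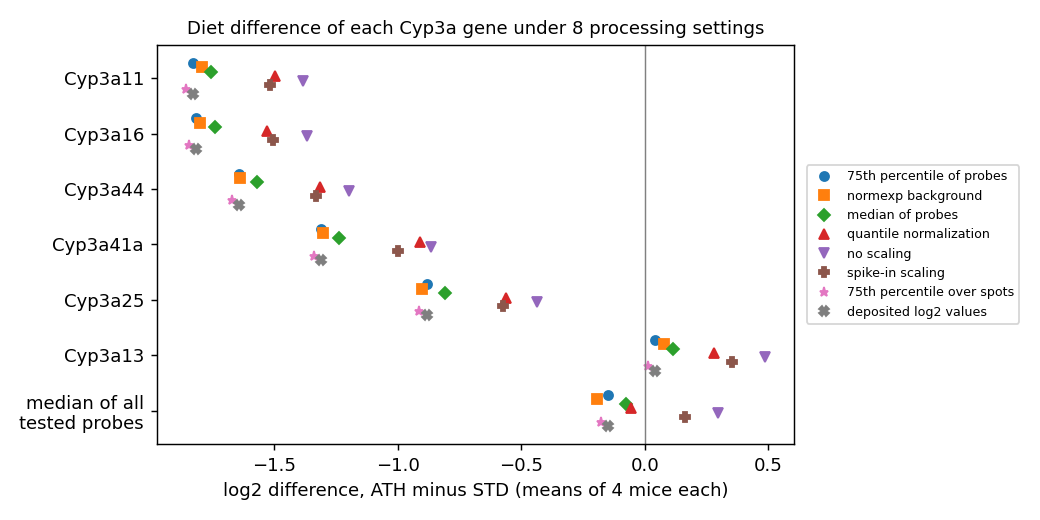
Log2 difference between the diets (x axis, ATH minus STD, means of 4 mice each) for each Cyp3a gene and for the median of all tested probes (rows), with 1 marker per processing setting. The 5 cluster genes stay below 0 in all 8 settings, Cyp3a13 stays above 0, and the median of all probes lies on either side of 0.

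Mice on the same diet also differed from each other in a shared way. After the mean of each diet was taken away, the 10 pairs among the 5 cluster genes correlated at 0.741 to 0.973 over the 8 arrays. Cyp3a13 correlated with them at -0.058 to 0.386. The genes are counted as the array names them, and the Cyp3a11, Cyp3a41a and Cyp3a44 probes may share transcripts. The pooled values covered unlike patterns in the diets. Among the 4 STD mice the cluster genes correlated at 0.911 to 0.994 with each other and at -0.993 to -0.858 with Cyp3a13, and among the 4 ATH mice at 0.309 to 0.994 and at 0.710 to 0.944. The points share 8 libraries, with 4 in each diet. All 5 cluster genes were highest in STD mouse 1 and lowest in STD mouse 4. Of all 16558 genes, 7.66% had this order at their brightest probe. Cyp3a13 had its highest STD level in mouse 4. On the ATH diet, mouse 2 was the highest in scaled level for all 6 genes, and mouse 4 was the lowest for all but Cyp3a25. The ATH order depended on the scaling. In unscaled signal, ATH mouse 3 was the highest for Cyp3a11, Cyp3a16 and Cyp3a44. There ATH mouse 1 was the highest for Cyp3a25 and Cyp3a41a, and ATH mouse 2 for Cyp3a13 alone. The STD order of the 5 cluster genes was the same without scaling. The SD of Cyp3a25 among STD mice, 0.51, exceeded that of 90.1% of tested probes, whose median SD was 0.21 on the STD diet and 0.28 on the ATH diet.

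STD mouse 4 stood apart in acute phase genes, which were picked out here after their values were seen. Saa1, a serum amyloid A protein made by hepatocytes in inflammation, read 4.92, 5.42, 5.77 and 10.12 in STD mice 1 to 4 and 8.30, 8.61, 8.74 and 8.93 in the ATH mice. STD mouse 4 was thus above every ATH mouse for Saa1, and the same held for Lcn2, encoding the iron-chelator carrier lipocalin 2, at 3.44 in that mouse against -3.80 to -3.22 in the other STD mice and -0.35 to 2.87 in the ATH mice. The summed macrophage markers of STD mouse 4 were at 6.73, within the STD range of 6.50 to 6.73. The part of the acute phase genes in the Cyp3a levels of that mouse was not tested. Without STD mouse 4 the difference was -1.92 for Cyp3a11, -1.96 for Cyp3a16, -1.75 for Cyp3a44, -1.38 for Cyp3a41a, -1.10 for Cyp3a25 and 0.11 for Cyp3a13.

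**Figure D3:**
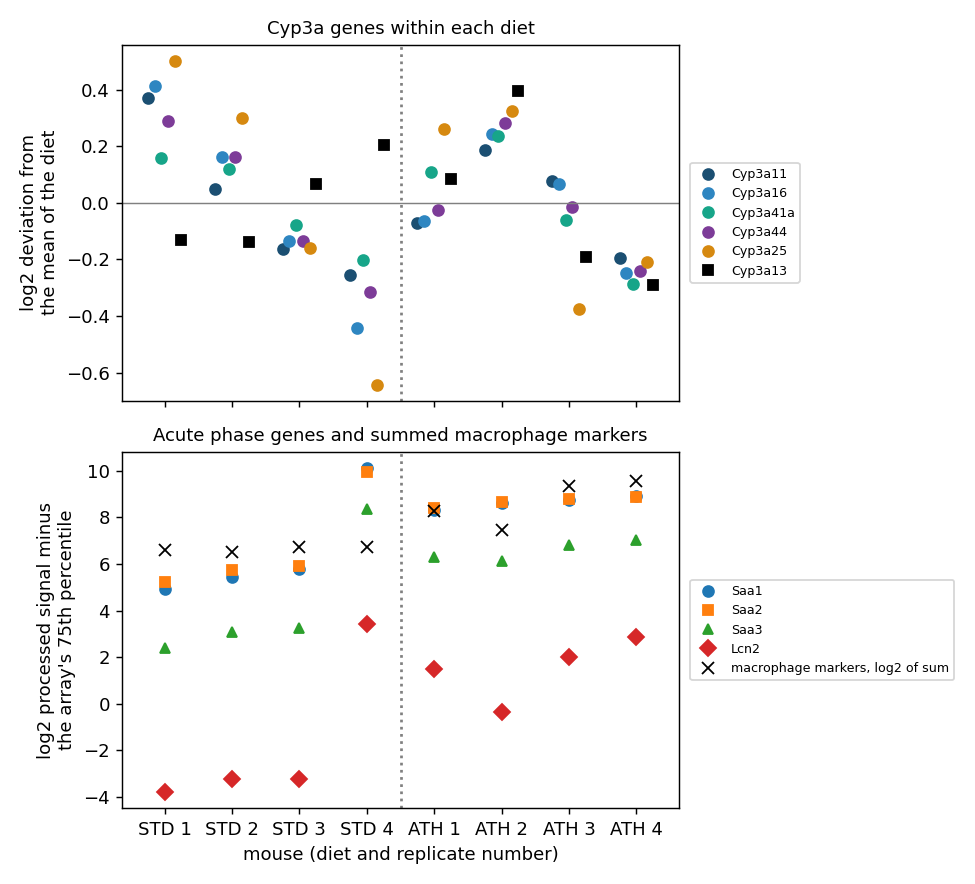
Upper panel, log2 deviation of each Cyp3a gene from the mean of its diet (y axis) in each mouse (x axis). Lower panel, scaled log2 level of Saa1, Saa2, Saa3 and Lcn2 and the log2 of the summed macrophage markers in the same mice. The 5 cluster genes (circles) are lowest among STD mice in mouse 4, which also has the highest Saa1 of all 8 mice at 10.12. In scaled level they correlate with each other at 0.911 to 0.994 among STD mice and 0.309 to 0.994 among ATH mice. Cyp3a13 (squares) correlates with them at -0.993 to -0.858 among STD mice and 0.710 to 0.944 among ATH mice. The part of the scaling in these correlations was not tested.

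Markers of other cell types also differed between the livers, and in whole tissue fewer cells of a type and less RNA per cell cannot be told apart. Of all 16558 genes, 5.3% fell and 4.05% rose at 5% by limma, and 5070 had an unadjusted p under 0.05. Of 7 measured hepatocyte markers 1 passed 5% by limma, lower, with a median difference of -0.33 (0.11 without scaling), and albumin was high in every liver. The log2 of their summed level was 11.82 to 11.86 in the STD mice and 11.24 to 11.68 in the ATH mice. Of 10 macrophage markers 5 rose and none fell (2 rose without ATH mouse 1, 7 without ATH mouse 2 and 1 without any other single mouse), with a median of 1.62, and their summed level was 6.50 to 6.73 in the STD mice and 7.45 to 9.55 in the ATH mice. All 10 passed the detection filter, the defining marker Adgre1 among them at 1.51 to 1.77 in the STD mice. Of the other markers, 1 of 8 stellate cell, 1 of 5 cholangiocyte and 1 of 5 endothelial markers rose and none fell, while 0 of 6 T and B cell and 0 of 2 measured neutrophil markers passed 5% by limma (2 and 2 had an unadjusted p under 0.05, and 0 passed by the methods' test). Without any 1 STD mouse, or without ATH mouse 4, none of the stellate, cholangiocyte or endothelial markers passed, and without ATH mouse 1 the stellate count was 4 of 8. Without ATH mouse 2, both neutrophil markers and 1 T and B cell marker rose. The part of cell composition in the Cyp3a differences was not tested.

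The receptors and transcription factors that act on Cyp3a genes showed no call. Of 16 measured, 0 passed 5% by limma, 4 had an unadjusted p under 0.05, and 0 passed by the methods' test. Of all 16558 genes tested, 9.35% passed 5% by limma, 5070 had an unadjusted p under 0.05, and 11 passed by the methods' test. The median of the list was -0.31, against -0.14 over all genes, and it was 0.13 with no scaling and -0.00026 with the spike-in scale. Without STD mouse 2 there were 2 calls and without ATH mouse 2 there was 1, all lower. Nr1i2, encoding PXR, read 3.46, 1.80, 3.64 and 3.84 in the STD mice and 1.27, 1.81, 3.31 and 3.30 in the ATH mice. STD mouse 2 lay with ATH mice 1 and 2, and the difference of -0.76 ± 0.58 (SE) did not pass (limma, adjusted p = 0.412). Nr1i3, encoding CAR, differed by -0.67 ± 0.30 (SE; limma, adjusted p = 0.179), and its retinoid partner Rxra by -0.32 ± 0.13 (SE; limma, adjusted p = 0.144). Hnf4a, whose motif stands in several Cyp3a promoters, differed by -0.13 ± 0.14 (SE; limma, adjusted p = 0.578; 0.32 without scaling). Cebpa, a hepatocyte factor, came nearest to the threshold at -0.55 ± 0.14 (SE; limma, adjusted p = 0.051).

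The electron donors and haem enzymes that CYP3A proteins depend on were lower in value in 13 of 14 cases, where 65.1% of all genes were, and in 9 of 14 without scaling, where 18.4% of all genes were. Of the 14, 2 fell at 5% by limma and none rose, where 5.3% of all genes fell. Both encode parts of the cytochrome b5 system. Cyb5b, an outer mitochondrial membrane form of cytochrome b5, fell by 0.93 on the log2 scale (limma, adjusted p = 0.019), and Cyb5r3, the reductase of cytochrome b5, fell by 0.76 (limma, adjusted p = 0.025). For both, every ATH mouse was below every STD mouse. Cyb5a, the other cytochrome b5 gene of the list, differed by -0.50 ± 0.19 (SE) and did not pass (limma, adjusted p = 0.126). Without STD mouse 1, 3 or 4 or ATH mouse 4 none of the list fell, without STD mouse 2 or ATH mouse 3 only 1 did, and without ATH mouse 2 there were 4. Por, the P450 reductase itself, read 6.71, 5.94, 5.82 and 6.50 in the STD mice and 5.20, 5.06, 5.95 and 5.38 in the ATH mice. ATH mouse 3 lay within the STD range, and the difference of -0.85 ± 0.26 (SE) did not pass (limma, adjusted p = 0.076). Alas1, the first enzyme of haem synthesis, differed by -0.86 ± 0.58 (SE; limma, adjusted p = 0.356), and Hmox1, which degrades haem, by 1.29 ± 0.61 (SE; limma, adjusted p = 0.201). The median of the list was -0.56, and -0.12 without scaling.

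Among other known target genes of PXR and CAR, 11 of 14 were lower in value on the atherogenic diet, where 65.1% of all genes were. Without scaling 9 of 14 were lower, where 18.4% of all genes were. Of the 14 measured, 7 fell at 5% by limma and none rose, where 5.3% of all genes fell and 4.05% rose. Abcb1a was not detected. The median was -0.82, and -0.37 without scaling. The number that fell was 3 without STD mouse 3 or ATH mouse 4 and 4 without STD mouse 2, STD mouse 4 or ATH mouse 3.

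Cyp2b10, the classical CAR target, read -0.13, -1.47, -2.64 and -2.36 in the STD mice and -3.52, -4.29, -4.04 and -4.39 in the ATH mice, a difference of -2.41 ± 0.50 (SE; limma, adjusted p = 0.030). STD mouse 1 was the highest, as it was for the Cyp3a cluster genes. Cyp2c55, an inducible epoxygenase, read 1.58, 0.90, 0.59 and 0.04 in the STD mice and -1.37, -0.68, -2.11 and -1.46 in the ATH mice, a difference of -2.18 ± 0.37 (SE; limma, adjusted p = 0.018). It shared with the 5 cluster genes the highest level in STD mouse 1 and the lowest in STD mouse 4, as did 6 of the 14 targets in all. Ces2a, a carboxylesterase, fell by 1.26 (limma, adjusted p = 0.0070), Aldh1a1, a retinaldehyde dehydrogenase, by 1.22 (limma, adjusted p = 0.0075), and Slco1a4, an organic anion uptake carrier, by 1.32 (limma, adjusted p = 0.038). Abcc3, a basolateral efflux pump, fell by 1.16 (limma, adjusted p = 0.017), and Ugt1a1, the bilirubin glucuronosyltransferase, by 0.90 (limma, adjusted p = 0.041). The exceptions in direction were Akr1b7, an aldose reductase family member, at 1.27 ± 0.33 (SE; limma, adjusted p = 0.0503), Gadd45b, a stress response gene, at 1.63 ± 0.68 (SE; limma, adjusted p = 0.157), and Abcc4, an efflux pump, which did not pass either.

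**Figure D4:**
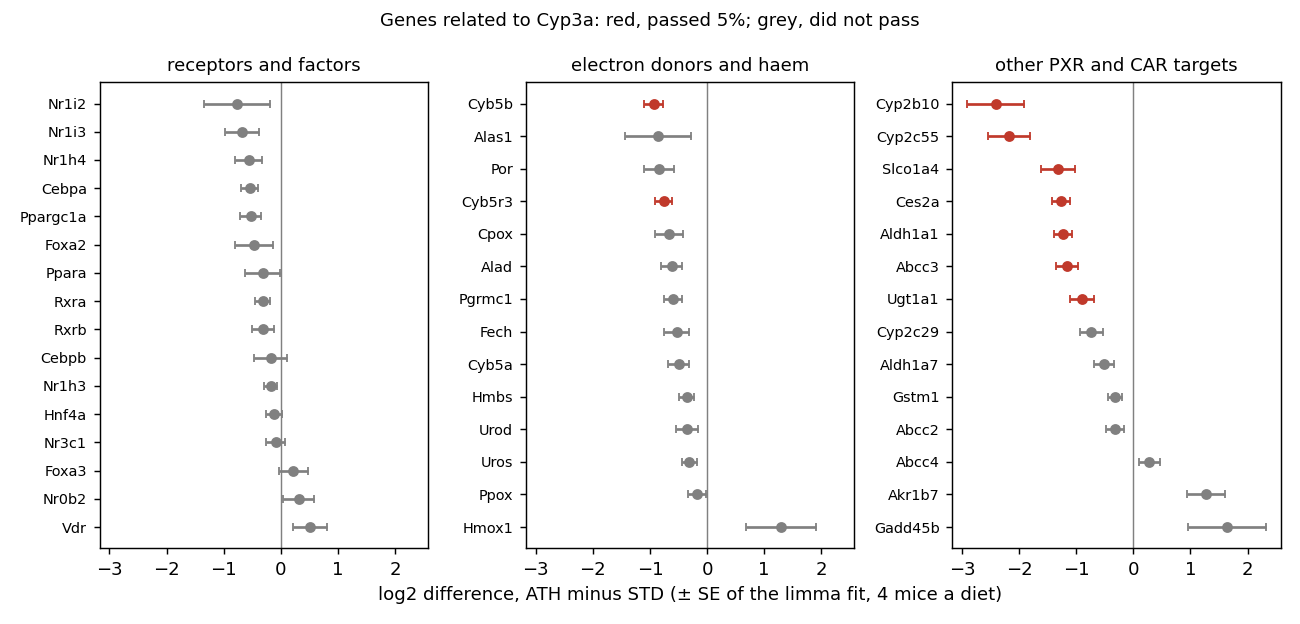
Log2 difference between the diets (x axis, ATH minus STD, with the SE of the limma fit, 4 mice a diet) for 16 receptors and transcription factors, 14 electron donors and haem enzymes and 14 other PXR and CAR targets (rows). Red marks genes that passed 5% after adjustment over all probes, which are 0, 2 and 7 of the respective lists.

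Lists on the settings in which Cyp3a expression is known to vary were read in the same fit, in which 5.3% of all genes fell and 4.05% rose at 5%. Of 15 cytokine and acute phase genes 4 rose and none fell, with a median of 1.24: Tnf by 3.16 (limma, adjusted p = 0.041), Il1b by 2.55 (limma, adjusted p = 0.034), Il1r1 by 1.47 (limma, adjusted p = 0.044) and Il6 by 1.24 (limma, adjusted p = 0.031). Tnf was dim in the STD mice, with 10, 10, 9 and 2 of its 10 spots well above background in STD mice 1 to 4, against all 10 in each ATH mouse. Il6 was dim there as well, with 8, 7, 9 and 10 of its 10 spots, against all 10 in each ATH mouse. Of 7 measured female-biased liver genes, a pattern shared by Cyp3a41a and Cyp3a44, 4 fell and none rose, among them Cyp2b13 at -2.94 ± 0.63 (SE; limma, adjusted p = 0.032), and the median was -1.15. Cyp2b13 was low in the ATH mice, at -4.61 to -2.60. Sult3a1, also called, was low on both diets, at -5.17 to -4.30 in the STD mice and -6.16 to -5.67 in the ATH mice. The part of background in differences at such low levels was not tested. Of 10 male-biased genes 3 fell and none rose, with a median of -0.57. Genes of both sex biases were therefore among those that fell.

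Of 8 pericentral hepatocyte genes, the zone in which Cyp3a11 is mainly expressed, 4 fell with a median of -0.57, and of 8 periportal genes 3 fell with a median of -0.66. None of these genes rose. Of 12 bile acid genes 4 fell and 1 rose: Cyp8b1, which introduces the hydroxyl group of cholic acid, fell by 4.00 (limma, adjusted p = 0.017), and Slc51b, a subunit of the basolateral bile acid exporter, rose by 1.99 (limma, adjusted p = 0.043). Over all these lists of related genes, 103 were tested, of which 26 fell and 5 rose. With single mice left out the calls in each of these 6 lists ranged down to 1 or 0, and without STD mouse 4 there were 5 cytokine and acute phase genes, 1 female-biased gene, 2 male-biased genes, 1 pericentral gene, 0 periportal genes and 3 bile acid genes called.

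The measured genes nearest to the Cyp3a loci were read in the same fit, in which 9.35% of all genes were called in either direction. Of the 3 nearest measured genes on each side of the cluster and of Cyp3a13, 12 in all, 0 passed 5% by limma, 6 had an unadjusted p under 0.05, and 0 passed by the methods' test. Of all 16558 genes, 5070 had an unadjusted p under 0.05 and 11 passed by the methods' test. With so few neighbours, 0 calls is near the share over all genes, and nothing is read from it. Next to the cluster, Zfp655, Zkscan5, Zkscan14, Rnf6, Cdk8 and 4930449I24Rik differed by -0.53 to 0.05. The 5 Cyp3a genes between them, which were chosen on their difference, differed by -1.83 to -0.88. Next to Cyp3a13, the paired immunoglobulin-like receptor genes Pilra, Pilrb1 and Pilrb2, known from myeloid cells, differed by 1.52, 1.04 and 1.20, with the lowest adjusted p, 0.067, for Pilra.

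**Figure D5:**
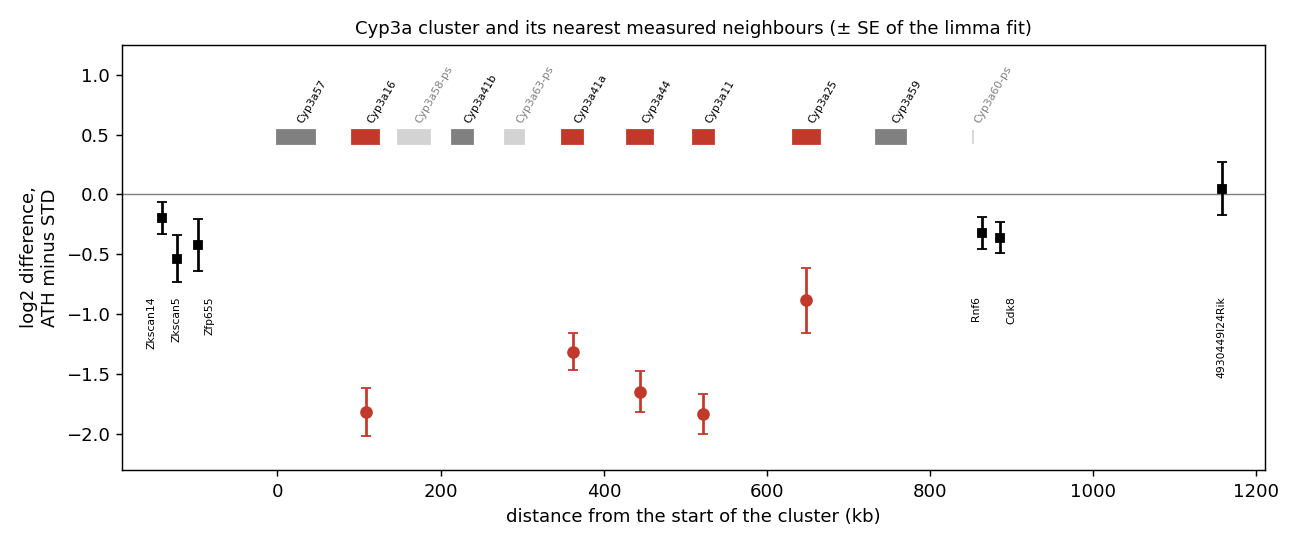
Log2 difference between the diets (y axis, ATH minus STD, with the SE of the limma fit) against distance from the start of the Cyp3a cluster in kb (x axis). Boxes show the genes, red with a probe, dark grey without one and light grey for pseudogenes, circles the 5 cluster genes at their brightest probe, and squares the 6 nearest measured genes outside, which lie between -0.53 and 0.05.

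The genes with the pattern most like the mean of the standardised Cyp3a values were sought among 16552 genes, as a description with no test. After the diet means were taken away, Sgms1, which makes sphingomyelin, correlated at 0.994 over the 8 arrays, and Fam53a, Adamts1, Phf10 and Ecpas at 0.978 to 0.988. With the diet difference kept in, the most alike were Gsdmc3 at 0.995, Nfe2l1, a transcription factor of proteasome genes, at 0.993, Mllt6 at 0.992, Lrrc51 at 0.991 and Ttpa, the hepatic vitamin E transfer protein, at 0.989. The last 5 genes differed between the diets by -0.78 to -0.42, less than any of the 5 cluster genes. These points, too, share their libraries and are scaled levels.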

How the data were processed

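Liver RNA of 8 mice was hybridized to 1-color Agilent arrays, 4 for each diet. The authors scanned the arrays and deposited the output of Agilent Feature Extraction (version 9.5), which holds background-subtracted spot intensity values with no scaling between arrays. They also deposited a table of log2 values from GeneSpring with 31642 rows, which equals the log2 processed signal plus constants per array and per probe within 0.001 for 100.0% of detected probes. The number of arrays limits the precision. From 72.3% to 77.8% of spots were well above background.

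Outlier spots were dropped, and the remaining spots of a probe were averaged. The log2 processed signal minus the 75th percentile of each array was used. A probe was tested when detected on 3 or more of the 4 STD arrays or of the 4 ATH arrays. Diet was tested over all 31056 such probes with limma version 3.58.1 (R version 4.3.3, two-sided, Benjamini-Hochberg), at 1% for probes and 5% for the lists of related genes. The brightest detected probe stood for a gene. Of 41174 probes, 22951 were named through their accession, 6659 by symbol and 3109 by synonym, and 8455 stayed unnamed. Steps were tested on simulated data. Tables and plots used Python version 3.11.15.

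The members and gene lists were chosen with earlier results of these data known. All Cyp3a members, all receptors, electron donors and PXR or CAR targets could be named, at most 4 called genes of each other list with defining markers, the 3 measured neighbours on each side, and the 5 most alike genes by each measure. Saa1, Saa2, Saa3 and Lcn2 were named after their values were seen. All 6 members had a promoter sequence in the RefSeq table (GRCm38.p6). Labels number the mice but do not say that equal numbers were handled together, though the file headers give equal numbers the same position on the 2 slides, and p-values measure the spread between these mice. Alternatives changed the background correction, the scale, the filter, the threshold or the test, used the deposited values, added a replicate block, or omitted single arrays.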

Additional observations from a re-analysis of the deposited data

Results flagged for a closer look

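Of 308 groups of 4 mice examined (the Cyp3a probes and the genes of all lists, in each diet), 14 held a mouse whose distance from the nearest other mouse was large against the range of its group, and chance alone gives about 1 such group in 20. No Cyp3a probe was among them. On the STD diet, mouse 4 was high for Saa1 at 10.12, for Saa2 at 9.94, for Saa3 at 8.37 and for Lcn2 at 3.44, where the other STD mice lay at 4.92 to 5.77, 5.24 to 5.92, 2.39 to 3.26 and -3.80 to -3.22. The same mouse was low for Tnf at -5.36. STD mouse 1 was high for Gadd45b, at -0.95 against -2.81 to -2.62, and low for Cyp7b1 at 7.60 and Cyp2f2 at 8.46. STD mouse 3 was high for Foxa3, at 1.28 against 0.68 to 0.75, and low for Abcb11 at 7.90. STD mouse 2 was low for Adgre1 at 1.51. On the ATH diet, mouse 4 was low for Apob at 6.46 and Slc1a2 at 2.97 and high for Vsig4 at 2.56.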

How the results depend on the processing

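The 5 Cyp3a genes of the cluster stayed lower on the ATH diet under every setting run, and Cyp3a13 stayed at 0.01 to 0.49 over the scalings and at -0.09 to 0.14 with single mice left out. The median difference of the 6 genes, -1.48, was -1.11 with quantile normalization and -1.03 without scaling, and -1.56 to -1.39 with single mice left out. The probes called at 1%, 164, were 450 with normexp, 461 without scaling, 84 with spike-in scaling, 37 without the detection filter, 247 with detection on all 8 arrays, 2483 at 5% and 0 by the methods' test (22 at 5% and 7097 at an unadjusted p under 0.05). With single mice left out they were 5 to 1010, with 5 without STD mouse 2 or 3, 11 without STD mouse 1 or ATH mouse 4, 22 without ATH mouse 1, 37 without ATH mouse 3, 50 without STD mouse 4 and 1010 without ATH mouse 2. The 4 Cyp3a genes called at 1% became 0 without STD mouse 1, 2 or 3 or ATH mouse 1 or 4, 1 without ATH mouse 3 and 3 without STD mouse 4, and 4 passed 5% in each case. They became 3 without scaling or with quantile normalization, 2 with spike-in scaling, 1 without the detection filter and 0 with the replicate block or by the methods' test, which called 0 of them at 5% as well. These calls, too, belong to the contrast from which the genes were chosen, and nothing is read from them. Of the called probes 36.6% were higher on the ATH diet, and 87.2% without scaling, 65.5% with spike-in scaling and 46.8% with quantile normalization. The related genes called at 5%, 31, were 20 with quantile normalization, 17 without the filter, 1 by the methods' test, 3 at 1% and 7 to 41 with single mice left out (7 without STD mouse 3, 8 without ATH mouse 4, 9 without STD mouse 1, 13 without ATH mouse 3, 15 without STD mouse 4 and 18 without STD mouse 2).

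Mice with equal replicate numbers deviated together at 0.0996 to 0.229, below 0.1 for the first pair, so that they were taken to share only a number, although arrays with equal numbers also had the same position on the 2 slides. With the replicate number as a block, 0 probes passed 1% by limma, 1269 passed 5% and 9855 had an unadjusted p under 0.05. Of the calls printed above for single genes, the block lost Tnf (adjusted p = 0.065), Slco1a4 (0.053) and Ugt1a1 (0.061) at 5%, and the neutrophil markers S100a8 (0.027) and S100a9 (0.030) passed. Macrophage markers called were 3 in place of 5, and periportal genes 1 in place of 3. The causes of these changes were not tested. Of the other values, 88 of single Cyp3a genes moved by less than the SD between mice and 14 by more, with no change of direction except for Cyp3a13.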
